A study of Mus musculus with 6 samples.

Results

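The 8 genes described here mark the muscle lineage of the head and the cranial mesoderm it comes from: the myogenic regulators Myf5, Myod1 and Myog, the sarcomeric actins Actc1 and Acta1, and the mesoderm regulators Tbx1, Msc and Tcf21. They were picked by gene symbol, and each had 1 entry among the 55401 genes of the count table. All 8 were among the 19612 genes abundant enough to be tested for a genotype difference. They were read in frontonasal and maxillary prominences (FNP and MxP), the swellings that build the midface and upper jaw, microdissected from mouse embryos at E10.5, the middle of gestation. The tissue was profiled in bulk from 3 Tfap2Δ/NCKO mutants and 3 controls.

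Mutants (Tfap2a null/flox; Tfap2b null/flox; Wnt1:CRE) carried 1 null and 1 floxed allele of each gene, so that CRE removed the remaining copy of both in the neural crest, where the Wnt1 transgene is active. Cells outside that lineage, head mesoderm among them, kept 1 working copy of each gene. Controls were CRE-negative littermates of any Tfap2a and Tfap2b allele combination, so null alleles may be present among them. All mice were on a mixed background. Every mutant and no control carried the transgene, so loss of the TFAP2 factors and presence of the transgene cannot be told apart.

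Facial mesenchyme is mostly of neural crest origin, whereas the muscle cells of the head arise from cranial mesoderm that fills the core of the branchial arches. In that mesoderm Tbx1, a T-box factor, and Msc (MyoR) and Tcf21 (capsulin), a pair of related basic helix-loop-helix (bHLH) factors, act upstream of the bHLH myogenic factors. Myf5 and Myod1 commit cells to the muscle fate, Myog drives their differentiation, and the alpha actins Actc1 and Acta1 are built into the first sarcomeres. In the trunk this cascade starts under Pax3, which head muscle does not use in the same way.

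The libraries held 68119668 to 77555252 estimated counts each, and levels are given as CPM, counts scaled to these totals. The libraries did not share embryo sex between groups. Xist, the RNA of X inactivation in females, ranged over 0.474 to 0.896 CPM in mutants, whereas controls 1, 2 and 3 had 667, 0.372 and 699.8 CPM. Transcript of the Y-linked Ddx3y ranged over 40.5 to 45.8 CPM in mutants and was 45.1 CPM in control 2, but only 0.0534 CPM (control 1) and 0.0265 CPM (control 3) in the remaining libraries. All mutants and control 2 were thus Y-expressing. Genotype differences of the 8 genes are given both over all 6 libraries and for the mutants against control 2. For the dissection, 9 genes listed for the lower jaw and second arch were read, of which 5 were abundant enough to test. Their levels differed widely, and whether lower jaw tissue was included was not tested. Hand1 was at 0 in all 6 libraries. Hand2 and Hoxa2 each ranged over 0 to 0.133 CPM in mutants and 0 to 0.0267 CPM in controls. Hoxb2 was at 0 to 0.0512 CPM in mutants and 0.0926 to 0.120 CPM in controls. Dlx5 stood at 10.8 to 13.2 CPM in mutants and 12.6 to 15.4 CPM in controls. Dlx3 was at 9.68 to 12.5 CPM in mutants and 9.99 to 12.6 CPM in controls. Dlx6 was at 6.68 to 8.43 CPM in mutants and 7.98 to 8.60 CPM in controls. Edn1 (0.799 to 1.23 CPM in mutants, 0.922 to 1.11 CPM in controls) and Dlx4 (0.296 to 0.416 CPM, 0.595 to 0.748 CPM) were lower.

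All 8 genes were detected in every library and were scarce in this tissue. Their summed level was 12.0, 15.7 and 15.0 CPM in the mutants, against 7.72, 12.1 and 8.98 CPM in the controls. The control 2 sum was above that of mutant 1, so the groups overlapped. Per kilobase of exon the genes ran, in the mutants, from Actc1 (1.78 ± 0.303 CPM per kb, SD, n = 3) and Tbx1 (1.73 ± 0.289) through Msc (0.698 ± 0.0845), Myog (0.633 ± 0.489), Myf5 (0.614 ± 0.129) and Myod1 (0.284 ± 0.0388) to Acta1 (0.195 ± 0.0480) and Tcf21 (0.184 ± 0.137). In the controls the order was Actc1 (1.26 ± 0.284 CPM per kb), Msc (0.949 ± 0.159) with Tbx1 at the same mean (0.949 ± 0.116), Myog (0.351 ± 0.240), Myf5 (0.343 ± 0.283), Myod1 (0.120 ± 0.0179), Tcf21 (0.0938 ± 0.0303) and Acta1 (0.0877 ± 0.0241). Neighbours in these orders differed by less than the larger of their SDs, apart from Tbx1 and Msc, Myf5 and Myod1, and Myod1 and Acta1 in the mutants, and Actc1 and Msc, and Tbx1 and Myog in the controls. Prrx1, a marker of facial mesenchyme, stood at 19.4 CPM per kb in mutants and 20.8 CPM per kb in controls. Actc1, the highest of the 8 per kilobase, exceeded 40.7% of tested genes in mutants and 36% in controls. Acta1, at the low end, exceeded 13.8% in mutants and 5.9% in controls.

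The 300-base windows around 4 of the annotated starts are shown: Tbx1 as the gene nearest to a genotype call, Myog for its spread between embryos, and both sarcomeric actins for comparison with each other. They are RefSeq sequences of GRCm38.p6, written 5′ to 3′ on the strand of the gene. Capitals mark E-boxes (CANNTG), the motif bound by the myogenic bHLH factors, the motif GCCNNNGGC bound by the AP-2 family to which TFAP2A and TFAP2B belong, the CArG box bound by serum response factor, and TATAAA.
Tbx1, downstream start, chr16:18588850-18589149, minus strand: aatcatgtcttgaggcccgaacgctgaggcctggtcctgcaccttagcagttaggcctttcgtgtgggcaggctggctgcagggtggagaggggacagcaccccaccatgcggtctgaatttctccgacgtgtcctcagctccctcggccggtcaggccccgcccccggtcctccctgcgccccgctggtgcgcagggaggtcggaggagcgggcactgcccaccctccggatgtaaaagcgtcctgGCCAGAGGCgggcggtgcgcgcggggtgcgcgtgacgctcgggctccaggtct
Myog, chr1:134289754-134290053, plus strand: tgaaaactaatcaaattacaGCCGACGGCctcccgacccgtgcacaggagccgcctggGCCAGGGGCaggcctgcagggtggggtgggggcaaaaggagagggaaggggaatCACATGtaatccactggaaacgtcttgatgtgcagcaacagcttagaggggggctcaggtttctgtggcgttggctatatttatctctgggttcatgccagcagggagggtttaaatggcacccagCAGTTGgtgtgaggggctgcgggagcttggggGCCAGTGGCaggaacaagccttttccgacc
Actc1, chr2:114052826-114053125, minus strand: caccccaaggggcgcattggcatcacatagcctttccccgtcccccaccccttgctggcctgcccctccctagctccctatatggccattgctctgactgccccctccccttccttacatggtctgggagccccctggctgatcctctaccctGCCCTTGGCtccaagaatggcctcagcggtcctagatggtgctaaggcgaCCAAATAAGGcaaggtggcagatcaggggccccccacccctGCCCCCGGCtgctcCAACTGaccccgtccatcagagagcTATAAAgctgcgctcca
Acta1, chr8:123894726-123895025, minus strand: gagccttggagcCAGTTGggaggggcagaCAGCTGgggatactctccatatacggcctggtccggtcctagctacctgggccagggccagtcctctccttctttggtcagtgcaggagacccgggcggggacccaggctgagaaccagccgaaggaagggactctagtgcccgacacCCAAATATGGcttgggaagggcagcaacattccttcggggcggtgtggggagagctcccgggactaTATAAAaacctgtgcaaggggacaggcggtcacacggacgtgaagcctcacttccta

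Counted from the RefSeq start as position 1, with no position 0, the Myog window held E-boxes at -138 (CACATG) and -12 (CAGTTG) and 3 AP-2 motifs, at -230 (GCCGACGGC), -192 (GCCAGGGGC) and 21 (GCCAGTGGC). The Actc1 window held AP-2 motifs at -97 and -6, a CArG box at -47 (CCAAATAAGG), an E-box at 9 and TATAAA at 34. The Acta1 window held E-boxes at -238 and -221, a CArG box at -73 (CCAAATATGG) and TATAAA at -7, and no AP-2 motif. The downstream Tbx1 start had 1 AP-2 motif at -3 (GCCAGAGGC). A second, upstream Tbx1 start had E-boxes at -138 and 41, Myf5 had 1 TATAAA, at 21, and Tcf21 none of the motifs. The MEF2 motif was also searched for, in the form YTAWWWWTAR alone, where Y is C or T, W is A or T and R is A or G. In that form it was in no window of these genes. The Myog window held CTATATTTAT, which misses this form by its last base.
Over all 32851 promoter windows of this length, on both strands, 72.3% held an E-box, 16.6% the AP-2 motif, 1.63% a CArG box, 13.6% TATAAA and 3.19% the MEF2 motif. The E-box is thus common to most promoters, while the CArG box shared by both sarcomeric actins is not. These are matches of letters and were not tested as binding sites. Distances are to the annotated starts, whose use in this tissue was not tested. Windows were matched by symbol for 6 of the 8 genes, all but Myod1 and Msc.

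None of the 8 genes passed the test for a genotype difference over all genes (edgeR's quasi-likelihood test, Benjamini-Hochberg adjusted p under 0.05 with a minimum fold), where 64 of 19612 genes (0.326%) passed, 21 higher and 43 lower in mutants. Their fitted values nevertheless leaned one way, with 7 higher and 1 lower in mutants and a median log2 fold change of 0.86, against 0.00 over all tested genes. Myod1, Acta1 and Tbx1 were higher in every mutant than in any control, 3 of 8 where 7.15% of tested genes showed this. Msc was lower in every mutant than in any control, 1 of 8 where 6.24% did. For Myod1, Actc1, Acta1, Tbx1 and Msc the unadjusted p was under 0.05, as for 7.95% of tested genes. The genes were chosen with earlier results of these libraries known and several move together across embryos, so these shares are a description. In bulk tissue, a change in the number of cells of a type and a change in RNA per cell cannot be told apart.

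**Figure D1:**
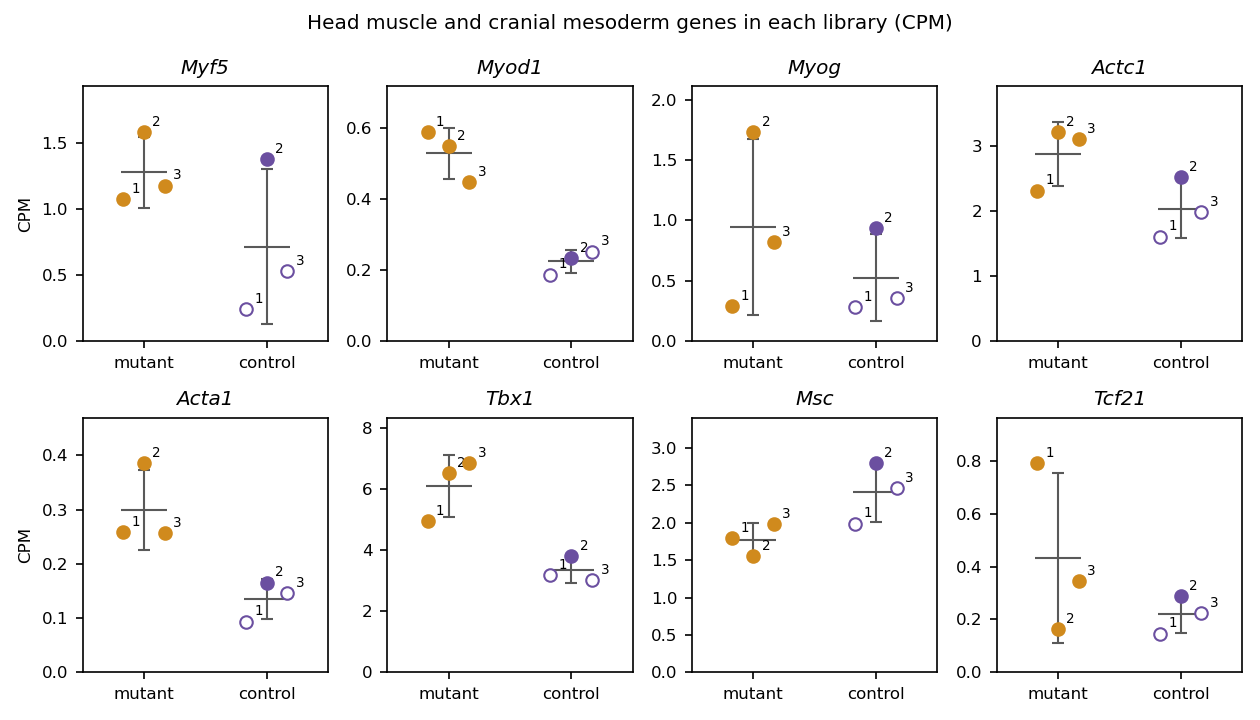
CPM (y axis, each panel from 0) of the 8 genes in each library, mutants (orange) left and controls (purple) right, with replicate numbers. Filled points are Y-expressing and open points Xist-expressing libraries, and bars give the mean ± SD (n = 3). Myod1, Acta1 and Tbx1 did not overlap between genotypes, and Msc was separated only by 1.98 against 1.99 CPM.

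Tbx1 (ENSMUSG00000009097.10, GRCm38 chromosome 16, 18580979 to 18590671, minus strand), a T-box regulator of pharyngeal mesoderm, came nearest to the threshold. It stood at 4.94, 6.51 and 6.83 CPM in mutants 1, 2 and 3, against 3.18, 3.80 and 3.03 CPM in controls 1, 2 and 3. Every mutant was above every control, and the controls lay close together. Its log2 fold change was 0.87 ± 0.16 SE (edgeR adjusted p = 0.0762), and it ranked at 101 of all tested genes by p. With the Wald test of DESeq2 on the same counts, which called 257 of 16810 genes (1.53%), Tbx1 was the 1 called member (adjusted p = 0.000632). Its edgeR adjusted p ranged from 0.0520 to 0.271 when single libraries were left out, and against control 2 alone the log2 fold change was 0.67 ± 0.23 SE (edgeR adjusted p = 0.665). Tbx1 is also made by pharyngeal endoderm and other tissues beside muscle precursors, and which cells carried it here cannot be told apart in bulk tissue.

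Msc (ENSMUSG00000025930.6, chromosome 1, 14753346 to 14755992, minus strand), a bHLH repressor marking the mesoderm core of the first arch, was the 1 gene with lower values in the mutants. It stood at 1.79, 1.55 and 1.98 CPM in the mutants, against 1.99, 2.79 and 2.46 CPM in the controls. Mutant 3 and control 1 were nearly equal, so the gap between the genotypes is narrow. Its log2 fold change was -0.44 ± 0.18 SE (edgeR adjusted p = 0.569), and it was -0.67 (SE 0.24) against control 2 alone. Gm9947 overlaps Msc on the opposite strand over 539 bases, and 15.3% of the 150-base windows of Msc transcripts also occur in Gm9947. Gm9947 itself had 2 to 6 counts in mutants and 7 to 15 in controls, so reads divided between the 2 genes are uncertain. The other 7 genes shared no 150-base window with another gene, which includes Actc1 and Acta1 despite their near-identical proteins.

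Tcf21 (ENSMUSG00000045680.8, chromosome 10, 22817281 to 22820174, minus strand), the bHLH partner of Msc in the first arch, did not follow it. It stood at 0.789, 0.163 and 0.346 CPM in the mutants, against 0.147, 0.289 and 0.225 CPM in the controls. Mutant 1 held the highest value and mutant 2 lay below control 2 and control 3. The log2 fold change of 0.97 ± 0.56 SE (edgeR adjusted p = 0.808) rested on mutant 1, without which it was 0.21 (SE 0.52). For the mutants against control 2 alone the log2 fold change was 0.56 (SE 0.84). The mutant counts of 55, 11 and 27 had a variance 16 times their mean, against 1.55 times for the control counts of 11, 21 and 17.

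Myf5 (ENSMUSG00000000435.1, chromosome 10, 107482908 to 107486134, minus strand), the earliest myogenic factor, varied widely between the controls. It stood at 1.08, 1.58 and 1.18 CPM in the mutants, against 0.240, 1.38 and 0.529 CPM in the controls. Control 2 lay inside the mutant range, while the Xist-expressing controls 1 and 3 were below every mutant. Over all libraries the log2 fold change was 0.84 ± 0.55 SE (edgeR adjusted p = 0.844), whereas the mutants against control 2 gave -0.12 (SE 0.31). Without control 2 it was 1.73 ± 0.37 SE (edgeR adjusted p = 0.149).

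Myod1 (ENSMUSG00000009471.4, chromosome 7, 46376474 to 46379099, plus strand), the second commitment factor, was even within each genotype. It stood at 0.588, 0.548 and 0.448 CPM in the mutants, against 0.187, 0.234 and 0.251 CPM in the controls. The lowest mutant was above the highest control, and control 2 lay with the other controls. On the log2 scale the fold change was 1.23 ± 0.30 SE (edgeR adjusted p = 0.191), and against control 2 alone it was 1.15 ± 0.46 SE (edgeR adjusted p = 0.797). Leaving out single libraries kept it between 1.11 and 1.33. The counts behind these values were small, at 41, 37 and 35 in mutants and 14, 17 and 19 in controls, and their variance was below their mean in both groups.

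Myog (ENSMUSG00000026459.5, chromosome 1, 134289989 to 134292548, plus strand), the factor of muscle differentiation, had the widest spread of the myogenic factors among the mutants. It stood at 0.287, 1.73 and 0.819 CPM in mutants 1, 2 and 3, against 0.281, 0.936 and 0.357 CPM in controls 1, 2 and 3. Mutant 1 was at the level of control 1, and the genotypes overlapped over most of their range. Its log2 fold change was 0.85 ± 0.70 SE (edgeR adjusted p = 0.891). It was 0.09 (SE 0.64) without mutant 2 and -0.00 (SE 0.94) against control 2 alone. The coefficient of variation was 77.2% in the mutants, against 13.7% for Myod1 in the same embryos.

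Actc1 (ENSMUSG00000068614.7, chromosome 2, 114047282 to 114053548, minus strand), the cardiac alpha actin that early skeletal muscle also makes, stood at 2.31, 3.21 and 3.10 CPM in the mutants, against 1.60, 2.52 and 1.98 CPM in the controls. Mutant 1 was below control 2, so the genotypes overlapped. Its log2 fold change was 0.50 ± 0.21 SE (edgeR adjusted p = 0.585), and 0.17 (SE 0.26) against control 2 alone.

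Acta1 (ENSMUSG00000031972.5, chromosome 8, 123891769 to 123894751, minus strand), the skeletal alpha actin, was scarcer. Its level was at 0.258, 0.385 and 0.256 CPM in the mutants, against 0.0935, 0.165 and 0.146 CPM in the controls. All mutants were above all controls, on 18, 26 and 20 counts in the mutants and 7, 12 and 11 in the controls. On the log2 scale the fold change was 1.14 ± 0.41 SE (edgeR adjusted p = 0.477) and 0.84 (SE 0.63) against control 2 alone. Acta1 reached the abundance minimum of the test, 0.135 CPM, in 3 mutants and 2 controls, and the other 7 genes reached it in all 6 libraries.

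**Figure D2:**
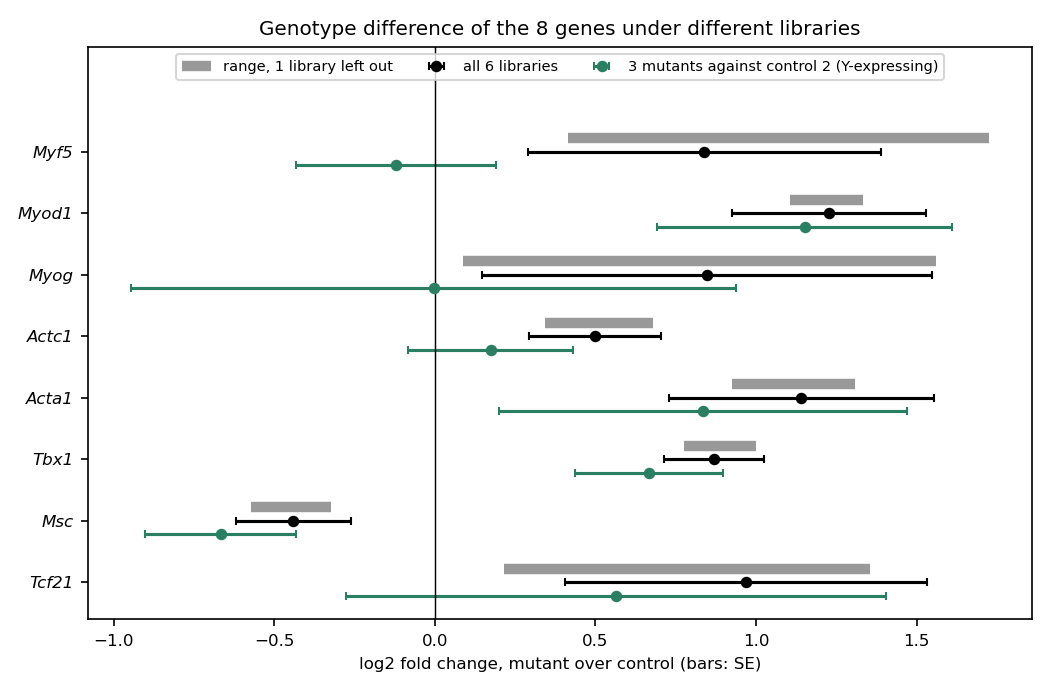
Log2 fold change of mutants over controls (x axis) for each gene (rows). Black points are all 6 libraries, green points the 3 mutants against control 2, both with SE bars, and grey bars span the values with 1 library left out. Myod1 stayed between 1.11 and 1.33 in the grey bar, whereas Myf5 ran over 0.41 to 1.73 and was -0.12 against control 2.

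The muscle genes also differed between embryos of 1 genotype. The mean of centred log2 CPM over Myf5, Myod1, Myog, Actc1 and Acta1 was 0.08, 0.86 and 0.40 in mutants 1, 2 and 3, against -0.99, 0.13 and -0.48 in controls 1, 2 and 3. Control 2 lay above mutant 1 on this scale, and mutant 2 and control 1 were the extremes. Control 2 had the highest value of the 3 controls in 7 of the 8 genes, Myod1 being the exception, where 32.9% of all tested genes were highest in control 2. Mutant 2 had the highest value of the mutants in 4 of the 8, where 33.8% of all tested genes did. Control 2 is the only Y-expressing control, so its embryo sex and its replicate number cannot be told apart. Over the 6 libraries, Pearson's r was 0.92 between Myf5 and Actc1, 0.93 between Myod1 and Acta1 and 0.75 between Myf5 and Myog, but 0.35 between Myod1 and Myog. Msc had negative r to all the others, of -0.71 to Myod1, -0.65 to Tbx1 and -0.61 to Acta1, but weaker ones of -0.33 to Actc1, -0.18 to Myog, -0.15 to Myf5 and -0.02 to Tcf21, and Tcf21 had r between -0.30 (Myog) and 0.54 (Myod1) to the other 7. These r describe 6 libraries that share the genotype difference.

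**Figure D3:**
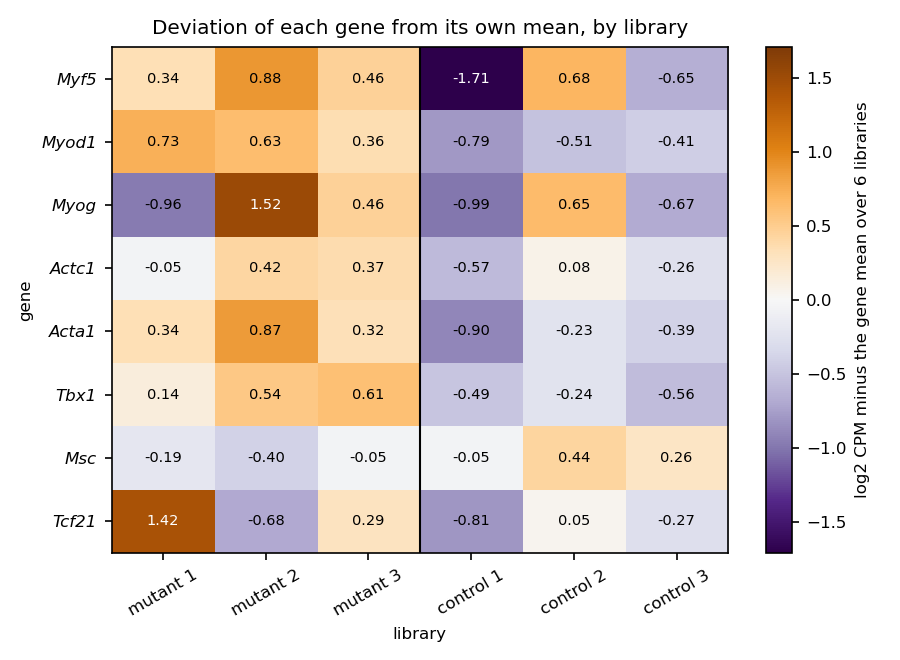
Log2 CPM of each gene (rows) minus its own mean over the 6 libraries, mutants left of the line and controls right of it; orange is above and purple below the mean. Control 2 was above the mean for Myf5 (0.68) and Myog (0.65) like mutants 2 and 3, and below it for Myod1 (-0.51).

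Among 14998 genes with a mean of at least 1 CPM, those that followed the muscle mean most closely over the 6 libraries were Tmem176b (Pearson's r = 0.996), Arpc1b (0.986), Wrnip1 (0.985), Map2k3os (0.983) and Ctsb (0.981). The gene most like Tbx1 was Synpo2, an actin-binding protein of muscle (r = 0.996), at 8.73, 10.9 and 11.7 CPM in mutants and 5.99, 6.94 and 6.10 CPM in controls. Synpo2 was selected for this likeness, so its separation of the genotypes is no further result, and it missed the threshold (log2 fold change 0.72 ± 0.13 SE, edgeR adjusted p = 0.0721). It passed without mutant 1 (edgeR adjusted p = 0.0438), with a replicate block (0.0473) and with DESeq2. Kcnj12 was most like Msc (r = 0.990) and Erlin1 most like Tcf21 (r = 0.988). In all, 59 genes exceeded r = 0.95 with the muscle mean, 108 with Tbx1, 30 with Msc and 8 with Tcf21.

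Upstream of the muscle program, 11 of 14 listed regulators were abundant enough to test and 1 passed. Pax3, the paired-box gene that starts trunk myogenesis and is also made in neural crest, was lower in the mutants at 14.1, 12.7 and 13.6 CPM, against 25.9, 26.5 and 28.3 CPM in the controls (log2 fold change -1.001 ± 0.07 SE, edgeR adjusted p = 0.000837). Pax3 passed under all 17 alternative settings, with an edgeR adjusted p of 0.0350 against control 2 alone. The median log2 fold change of the list was -0.07. Its most abundant gene was Lhx2, a LIM homeobox gene (131 to 158 CPM in mutants, 116 to 130 CPM in controls, edgeR adjusted p = 0.420). Nkx2-5, a factor of pharyngeal and heart mesoderm, was at 0 in all 6 libraries. Lbx1, which marks migrating trunk muscle precursors, was at 0.0574 to 0.0896 CPM in mutants and 0 to 0.0826 CPM in controls. Myf6, the fourth myogenic factor, was at 0 to 0.115 CPM in mutants and 0 to 0.0794 CPM in controls.

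Downstream, 24 of 30 listed products of muscle differentiation were tested and none passed edgeR's test in either direction. Of the 24, 2 had an unadjusted p under 0.05, as did 7.95% of all tested genes. In mutants 19 were fitted higher and 5 lower, with a median log2 fold change of 0.28, and 6 were higher in every mutant while 1 was lower. Over all 19612 tested genes 9866 were fitted higher, and 7.15% were higher and 6.24% lower in every mutant. Des, the muscle intermediate filament, was the most abundant at 10.3, 12.0 and 11.2 CPM in mutants, against 7.08, 10.3 and 9.39 CPM in controls (adjusted p = 0.597). Ryr1, the calcium release channel of skeletal muscle, stood at 6.40 to 6.49 CPM in mutants and 6.15 to 8.63 CPM in controls (adjusted p = 0.739). Mymk, the fusion protein myomaker, and Tnnc2, the fast troponin C, were at 0 in all 6 libraries. Ckm, muscle creatine kinase, had counts in control 2 alone (0.151 CPM). The sum over the list was 32.5 to 36.1 CPM in mutants and 28.5 to 31.9 CPM in controls.

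The partners and inhibitors of the myogenic bHLH factors did not pass in any of 10 cases. Of these, 3 had an unadjusted edgeR p under 0.05, as did 7.95% of all tested genes. The E-proteins Tcf3 (456 to 524 CPM in mutants, 491 to 516 CPM in controls) and Tcf12 (366 to 394 CPM in mutants, 389 to 405 CPM in controls), the dimer partners of MYOD1 and MYF5, were abundant. The list had a median log2 fold change of -0.06. Mstn, the secreted inhibitor of muscle growth, did pass and was lower in mutants at 0.775, 1.02 and 0.742 CPM, against 3.99, 4.06 and 4.51 CPM in controls (log2 fold change -2.31 ± 0.17 SE, edgeR adjusted p = 0.000864). It also passed under all 17 alternatives (edgeR adjusted p = 0.0366 against control 2 alone).

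Among other mesodermal genes there were calls in the upward direction. Of 9 tested genes of cranial and paraxial mesoderm, 2 were higher in the mutants and none lower. Meox2, a homeobox gene of somites and limb muscle, stood at 2.43, 2.49 and 3.28 CPM in mutants, against 0.655, 0.454 and 0.609 CPM in controls (log2 fold change 2.25 ± 0.21 SE, edgeR adjusted p = 0.00432). Tcf15, a bHLH factor of paraxial mesoderm that endothelium also makes, stood at 7.13, 8.42 and 10.1 CPM in mutants, against 2.53, 4.03 and 3.65 CPM in controls (log2 fold change 1.33 ± 0.19 SE, edgeR adjusted p = 0.0399). Meox2 passed under every alternative except the Y-expressing libraries alone (edgeR adjusted p = 0.0547). Tcf15 passed without control 2 (0.0386) but missed the threshold without any 1 of the other libraries (edgeR adjusted p of 0.0520 to 0.165) and against control 2 alone (0.269). It also lost its call without the robust step (adjusted p = 0.0596), with limma-voom (0.0666) and with the Y-linked covariate (0.335). Foxc1, a forkhead gene of head mesenchyme and the second most abundant of the list after Lhx2, was at 32.6 to 38.9 CPM in mutants and 29.5 to 34.3 CPM in controls (adjusted p = 0.836).

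**Figure D4:**
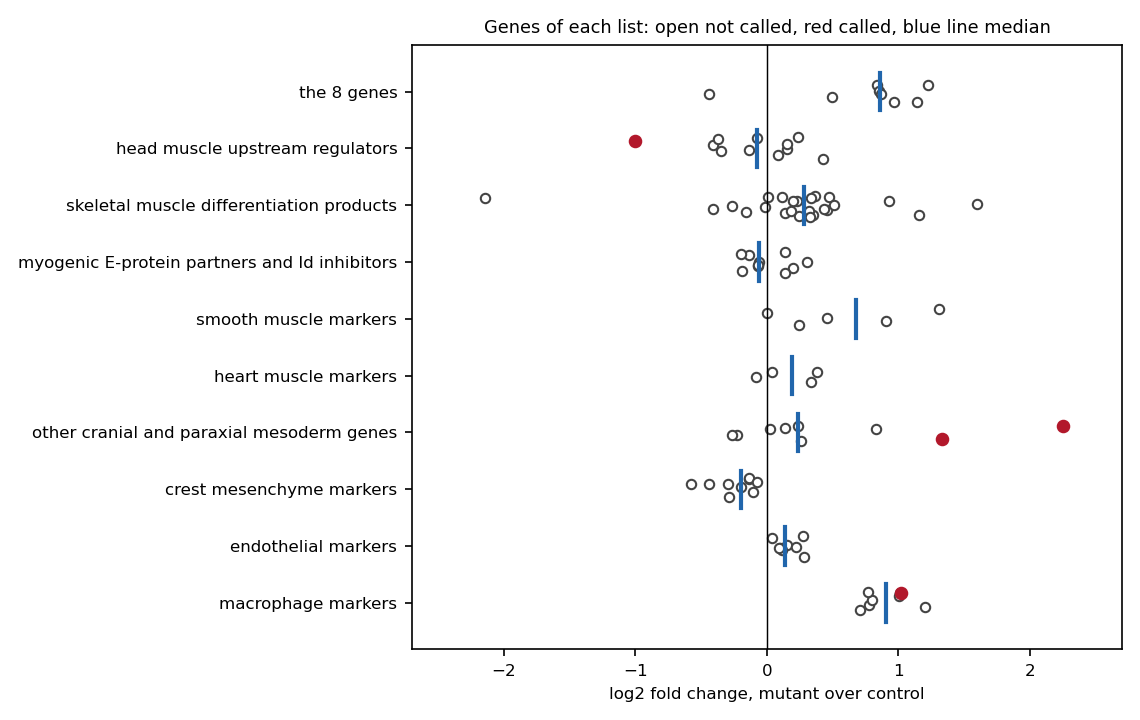
Log2 fold change of mutants over controls (x axis) for the tested genes of each list (rows). Open points did not pass, red points passed edgeR's test, and blue lines are list medians; 1 gene, Myh11, lies beyond the axis. The 8 genes had a median of 0.86 with none passing, and macrophage markers one of 0.90 with 1 passing.

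None of the 4 listed actins outside striated muscle passed edgeR's test, with 1, Acta2, at an unadjusted p under 0.05. The cytoplasmic Actb (2031 to 2272 CPM in mutants, 2037 to 2248 CPM in controls) and Actg1 (1860 to 2117 CPM in mutants, 1926 to 2084 CPM in controls) differed by a log2 fold change of -0.02 and -0.01. Smooth muscle Acta2 stood at 6.79, 9.74 and 9.75 CPM in mutants, against 2.43, 5.41 and 2.78 CPM in controls (log2 fold change 1.31 ± 0.32 SE, edgeR adjusted p = 0.234). All mutants were above all controls, and control 2 was again the highest control. Actg2, the other smooth muscle actin, named after its values were seen, overlapped at 0.172, 0 and 0.410 CPM in mutants, against 0.0802, 0.234 and 0.185 CPM in controls. None of the 6 smooth muscle markers passed. Myh11 aside, Acta2 and Tagln had an unadjusted p under 0.05, as did 7.95% of tested genes. Smtn, the most abundant of them, was at 32.7 to 37.2 CPM in mutants and 33.4 to 37.9 CPM in controls. Myh11, smooth muscle myosin, named after its values were seen, had 26, 16 and 17 counts in the mutants and 0 in each control, so it entered the test through the mutants alone and its p is not given. The mutant mean was at least 6.67-fold higher than the 0.0414 CPM that 3 counts in a control library represent on its unadjusted total.

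Markers of other cells in the dissected tissue are given as summed levels, and of all their genes 1 passed. Macrophage markers summed to 44.4, 50.4 and 64.1 CPM in mutants, against 24.7, 34.3 and 29.3 CPM in controls, with 8 of 8 fitted higher and 1, C1qb, a complement subunit, past the threshold (log2 fold change 1.02 ± 0.15 SE, edgeR adjusted p = 0.0423). C1qb too passed without control 2 (0.0222) and missed the threshold without any 1 of the other libraries (edgeR adjusted p of 0.0911 to 0.176) and against control 2 alone (0.466). It also lost its call with the replicate block (adjusted p = 0.0544), without the robust step (0.0623), with limma-voom (0.0671) and with the Y-linked covariate (0.374). Endothelial markers summed to 294 to 318 CPM in mutants and 268 to 279 CPM in controls, 8 of 8 fitted higher and none past the threshold. Crest mesenchyme markers summed to 722 to 764 CPM in mutants and 864 to 891 CPM in controls, 9 of 9 fitted lower and none past the threshold. Erythroid markers overlapped between the genotypes and were lowest, within each genotype, in replicate 2, with sums of 3184, 2335 and 3410 CPM in mutants 1, 2 and 3 and of 4335, 1924 and 3329 CPM in controls 1, 2 and 3. Neural markers also overlapped, at 453 to 537 CPM in mutants and 492 to 603 CPM in controls. Surface ectoderm markers summed to 273 to 326 CPM in mutants and 260 to 271 CPM in controls. Over all 19612 tested genes 9866 were fitted higher and 9746 lower, and 7.95% had an unadjusted edgeR p under 0.05. That p was under 0.05 for 7 of 8 macrophage, 4 of 8 endothelial and 6 of 9 crest mesenchyme genes. So it was for 4 of 7 surface ectoderm, 3 of 8 neural and 0 of 7 erythroid genes. The part of these marker levels in the values of the 8 genes was not tested. Of 10 heart markers, Hand1, Nppb and Nkx2-5 were at 0 in all 6 libraries, Myl2 and Nppa had counts in control 3 alone (0.0529 CPM each), and the sum was 3.15 to 4.06 CPM in mutants and 2.68 to 4.08 CPM in controls.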

How the data were processed

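RNA-seq of E10.5 FNP and MxP tissue was analysed from 3 Tfap2Δ/NCKO and 3 control libraries, prepared with a stranded poly(A) kit and read from 1 end at 150 bases. The values used are estimated counts deposited by the authors, who mapped reads to mm10 with STAR, quantified them with StringTie and ran its prepDE script. For software versions, annotation release, strand setting and the prepDE read length, the value is not given in the sources used here. Every value was whole as deposited. In each library fewer genes had 3 counts (429 to 548) than 2 (1104 to 1341), so 1 count need not be 1 read, and counts divided by 2 were tried. The DESeq2 columns of the same table and the second table, from kallisto and sleuth, hold fold changes, effects and p or q values of the authors' own comparisons and were not used.

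Groups and replicate numbers came from the sample titles. Libraries came from 3 mutant and 3 control littermates, and p-values measure only the spread between these libraries. Genes were kept with edgeR's filterByExpr (19612 of 55401), scaled by TMM (factors 0.992 to 1.01) and tested with robust glmQLFit and glmQLFTest (edgeR 4.0.16, limma 3.58.1, R 4.3.3), calling an adjusted p under 0.05 with a fold over 1.25. The SE of a log2 fold change is its size divided by the square root of F. On the unadjusted library totals, a level of 3 counts corresponds to 0.0387 to 0.0440 CPM, and this floor covers counting error only. Exon lengths and gene positions came from GENCODE M21 (GRCm38). The script was tested on simulated data.

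The 8 genes and the lists were chosen with earlier results of these data known. The rule for named genes took, from each list, genes that passed and the 2 most abundant (printed where a result turned on them), with Mstn, Acta2, Actb, Actg1, Xist, Ddx3y and the genes most like the members. Outside it, chosen after their values were seen, are Myh11, Actg2, Tagln, Gm9947, Dlx4, Dlx6, Edn1, and genes at or near 0 (Nkx2-5, Lbx1, Myf6, Mymk, Tnnc2, Ckm, Hand1, Hand2, Hoxa2, Hoxb2, Nppb, Myl2 and Nppa). Some listed genes are not reported here. Alternatives were RLE and upper-quartile scaling, DESeq2 1.42.0, limma-voom, no filter, a minimum of 50 counts in 3 libraries, no robust step, halved counts, leaving out each library, a replicate block, a covariate for Y-linked expression (4 genes) and Y-expressing libraries alone.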

Additional observations from a re-analysis of the deposited data

How the results depend on the processing

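None of the 8 genes passed under any of 17 alternatives except Tbx1 with DESeq2, which raised the number passing to 1. Direction changed for Myf5 with the Y-linked covariate (-0.11) and in Y-expressing libraries alone (-0.12), and for Myog in those libraries (-0.00325). The other 6 kept their direction wherever a value could be had. Myod1, Acta1 and Tcf21 had no adjusted p in DESeq2 and no value at a minimum of 50 counts, and Acta1 none at halved counts. Over all genes 64 passed, against 257 with DESeq2, 34 with the Y-linked covariate, 33 in Y-expressing libraries alone and 23 to 63 with 1 library left out, the count being 41 when control 1 was dropped, 25 for control 3, 23 for mutant 2 and 26 for mutant 3. Of the genes of the other lists 4 passed, against 15 with DESeq2, 2 without the robust step, 2 with the covariate, 1 in Y-expressing libraries and 2 to 5 with 1 library left out, the 2 occurring without each library except control 2. In a Y-expressing comparison the lone control is assumed to vary like the mutants.

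With a replicate block 119 genes passed, 8 of the other lists and 0 of the 8, where the adjusted p of Tbx1 was 0.0585. Same-numbered libraries had r = 0.0319, 0.1085 and 0.1311 between their deviations from the group means. Other combinations had r from -0.126 to 0.00751, so each library correlated best with its own number. All these r are small, and whether the numbers pair the samples cannot be told from them. Depth limits Myod1, Acta1 and Tcf21, with 7 to 55 counts a library.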
